A study of Eptatretus atami with 13 samples.

Results

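Of 35332 gene models on the 19 large scaffolds of the brown hagfish genome, 8841 (25.0%) had no count in any of 13 organs. These silent models are described here. With the smaller scaffolds included there were 37562 gene models. The paper gives a lower number of annotated genes, and which of the models these are was not examined. The silent share is therefore a share of gene models and not of annotated genes. A model was a member when its counts summed to 0 over the 13 organ libraries and its scaffold held at least 100 models. The other 26491 models on the same scaffolds had at least 1 count and are called counted models. Members were thus chosen by their counts, and the number of silent models and every contrast of counts with counted models are a description and carry no test. Sizes and positions were not used by the rule, but the gene models are not replicates, so they are given as medians, shares and ranges.

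The study compared organs of wild-type *Eptatretus atami*, a hagfish, with 1 RNA-seq library for each organ and so no replicate of any organ. The organs were brain, heart, skin, ovary, kidney, gills, liver, intestine, gall bladder, slime gland, blood cells, adipose tissue and a skeletal muscle sample labelled as coming from the tongue. GEO's labels give the treatment of every sample as normal embryonic development and its cell type as whole organism, next to an organ name, and no age is given. Total RNA was sequenced from both ends of each fragment from strand-specific libraries, and the libraries held between 18800367 counts in gills and 39077785 in skeletal muscle, 352459537 in all.

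A gene model is a predicted set of exons, the stretches kept in the mature transcript, joined across introns. Predictions that no RNA read touches can be genes used at other stages or in other cells, remains of mobile elements with an open reading frame, copies of other genes, or no genes at all. Hagfishes also delete part of their germline DNA from the cells of the body early in development, and the assembly was made from testis, an organ that is not among the 13. The authors ordered it into chromosomes with data on DNA contacts in liver, and its 17 large chromosomes match the somatic number. They describe the wholly eliminated chromosomes as present in the assembly in fragments. They also identified germline-specific genes from the read depth of testis and blood DNA, which were not compared with the silent models here. None of these possible sources of silent models was tested here.

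The authors' annotation bears on what follows. Reads of these organs were assembled into transcripts, their exon and intron positions served as hints for the gene prediction, and untranslated regions and alternative transcripts were added from the transcripts. The exon structure of a model is therefore not independent of the reads that were later counted on it. The counting left out, by the default of the program and with no option set against it, reads that matched several places in the genome and reads that touched exons of more than 1 model, and it did not use strand. A model at 0 is thus a model without a uniquely assigned read, not a model shown to have no transcript.

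The number of silent models rested little on any single organ. Most models were either counted in every organ, 13200 of them, or in none, and the numbers in between were all lower (the plot of models by number of organs). The models with a count in 1 organ numbered 2258, and 1811 of these had a total of only 1 or 2 counts.

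**Figure D1:**
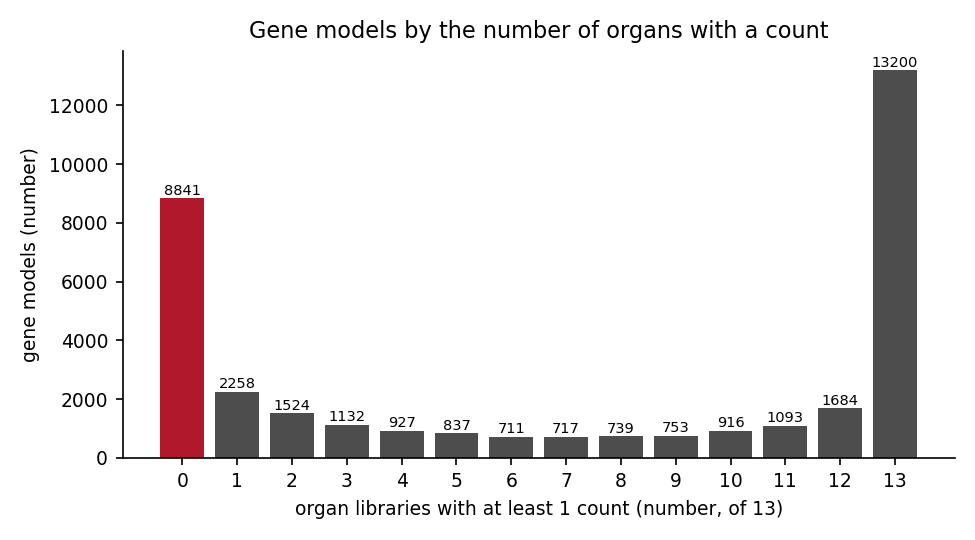
Number of gene models (vertical axis) by the number of organ libraries with at least 1 count (horizontal axis, 0 to 13), for the 35332 models on the 19 large scaffolds. The red bar marks the 8841 silent models, and the next highest bar, apart from the 13200 models counted in all 13 organs, is that of the 2258 models counted in 1 organ.

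In a single organ, far more models were at 0 than over all organs together. The number ran from 13614 models in adipose tissue, 14117 in brain and 14288 in ovary to 18297 in skeletal muscle and 18804 in liver. Liver and skeletal muscle also had the largest total counts, and those of adipose tissue and brain were among the smallest. The part of sequencing depth in these numbers was not tested.

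Adipose tissue held the most models counted nowhere else, 390, followed by ovary with 355 and brain with 261. Liver held the fewest, 52. Without the adipose tissue library 9231 models would be silent, and without both adipose tissue and brain 9737, or 896 more than with all libraries. These 896 include models that were counted in both of these libraries and in no other. Ovary is the only gonad among the 13, and without its library 9196 models would be silent.

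A total of 0 still allows a low level. With an upper limit of 3 fragments over all libraries, or 6 counts where both reads of each are counted, the median silent model, 432 bases long, could have up to 0.0394 FPKM (counts per kilobase of exon and per 1000000 assigned counts, here pooled over the libraries), the shortest, at 201 bases, up to 0.0847, and the longest, at 7548 bases, up to 0.00226. These limits, at a 95% confidence level, cover counting error only. They hold for the pool of libraries and not for a single organ, where the level could be higher. The 2 reads of a fragment were counted one by one, so that 83.5% of all values from 1 to 4 were even.

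Just outside the rule stood 430 models with a total of 1 count and 1461 with a total of 2, together 5.35% of the models. The longest of them were EA02344 with 7656 bases in 1 exon and 2 counts in ovary, EA10604 with 6906 bases in 1 exon and 1 count each in heart and intestine, and EA59246 with 6720 bases in 53 exons and 2 counts in all. EA59246 shared 6531 of its bases with EA59801, which had 20055 counts. EA27612, with 5418 bases in 1 exon, had 2 counts in slime gland, and EA74325, with 4953 bases in 3 exons, had 2 in gills. EA74325 shared 4700 of its bases with EA75470, which had 3 counts. Over all models with a total of 1 or 2 the median exon length was 480 bases against 432 for the silent models. Their median span was 564 against 456 bases, and 76% were single-exon models against 86%. Models just outside the rule were thus somewhat larger and less often of a single exon.

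Silent models were short and mostly made of 1 exon. Of the 8841, 7599 or 86% had a single exon, 714 had 2, 484 had 3 to 5 and 44 had 6 or more. Among counted models 23.7% had a single exon, and the median was 5 exons with quartiles of 2 and 10. The share of single-exon models was higher among the silent than among the counted models on 19 of 19 scaffolds, at 83.3% to 96.8% against 20% to 26.6%.

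The silent share fell with exon number. Of the 13866 single-exon models 54.8% were silent, of the 2670 models with 2 exons 26.7%, of the 7294 with 3 to 5 exons 6.64%, and of the 11502 with 6 or more exons 0.383%. A spliced model with many exons and no count was rare in this annotation, in which introns were placed with the help of reads from these organs.

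Exon length, the sum of a model's exons, had a median of 432 bases in silent models, with quartiles of 342 and 603. Counted models had a median of 1019 bases, with quartiles of 507 and 2057.5. The silent median was the lower of the pair on 19 of 19 scaffolds, at 411 to 465 bases against 889.5 to 1147.5. The shortest silent model had 201 bases and so did the shortest counted model.

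The exon length of 99.5% of silent models was a multiple of 3, the length of a codon, as a coding length without untranslated regions would be. This held for 74.3% of counted models, and for 60.9% of those with more than 1000 counts. Coding and untranslated bases are not told apart in the files used here, and their part in the difference in length was not tested. Among models whose length was a multiple of 3 the medians were 429 and 762 bases, a smaller gap than over all models. Exons of alternative transcripts were listed for 0.713% of silent and 21.4% of counted models.

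Length rose in steps with the total count. The median was 432 bases at a total of 0, 480 at 1 or 2, 486 at 3 to 10, 555 above 10 and up to 100, 852 above 100 and up to 1000, and 1818 above 1000 counts. Single-exon models fell from 86% at 0 over 76%, 66.8%, 46.5% and 15.1% to 2.99% in the highest class. A longer model offers more bases on which a read can fall, and the part of this in the steps was not tested.

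Within each length class the silent share fell with exon number, while the course with length differed between classes of exon number (the plot of silent shares by class). Single-exon models of 201 to 300 bases were silent in 62.9% of cases and those above 2000 bases in 27.7%. With 2 exons the share was 23.6% at 201 to 300 bases, highest at 301 to 500 with 34.4%, and 6.32% above 2000. With 3 to 5 exons it was 3.6% in the shortest class, highest at 501 to 1000 bases and 1.12% in the longest, so the shortest spliced models were not the most often silent. At 501 to 1000 bases the share was 49.2% for 1 exon, 31.1% for 2 exons, 9.46% for 3 to 5 exons and 0.769% for 6 or more. At a like exon number the median lengths of silent and counted models were nearer each other than the 432 and 1019 bases over all models: 420 and 501 bases at 1 exon, 463 and 513 at 2, 589.5 and 672 at 3 to 5, and 1724 and 2048 at 6 or more.

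**Figure D2:**
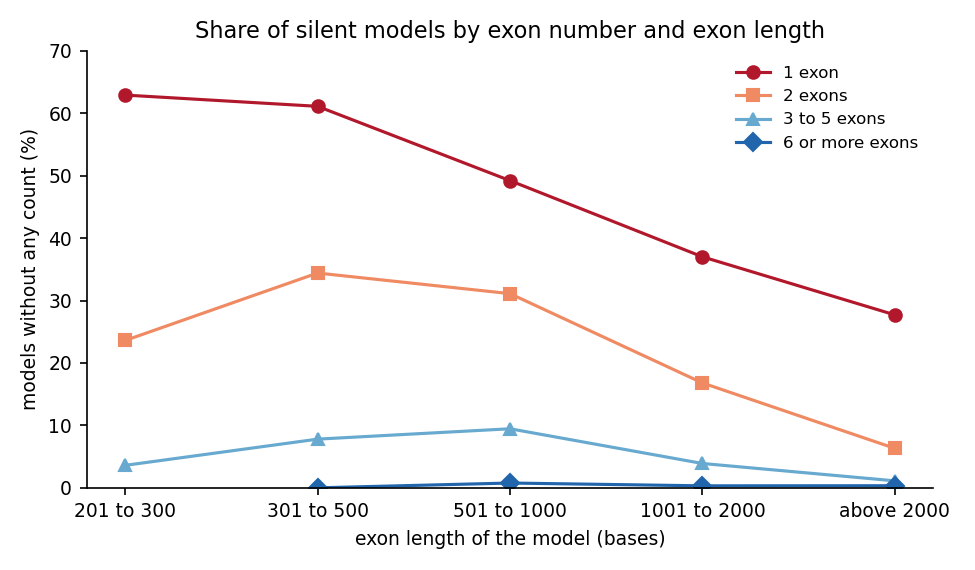
Share of models without any count in percent (vertical axis) by exon length in bases (horizontal axis), with 1 line for each class of exon number; classes with fewer than 20 models are left out. Within each length class the share is highest for single-exon models, from 62.9% at 201 to 300 bases to 27.7% above 2000 bases, and it is 0.769% or less for models of 6 or more exons.

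The span, from the first to the last base of a model, differed most, and in single-exon models, which have no introns, it equals the exon length. The median span was 456 bases in silent models, with quartiles of 351 and 732, and 22336 bases in counted models. Among models with 2 or more exons the medians were 8312.5 bases in silent and 39478 in counted models. Between models with the same exon number the medians lay near each other: 420 and 501 bases at 1 exon, 3452 and 3639.5 at 2 exons, and 17961.5 and 18689.5 at 3 to 5 exons. At 6 or more exons the order was turned, with 97132.5 bases in the 44 silent models and 67095 in the counted ones. Spans of 300 kb or more belonged to 2 silent and 379 counted models.

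**Figure D3:**
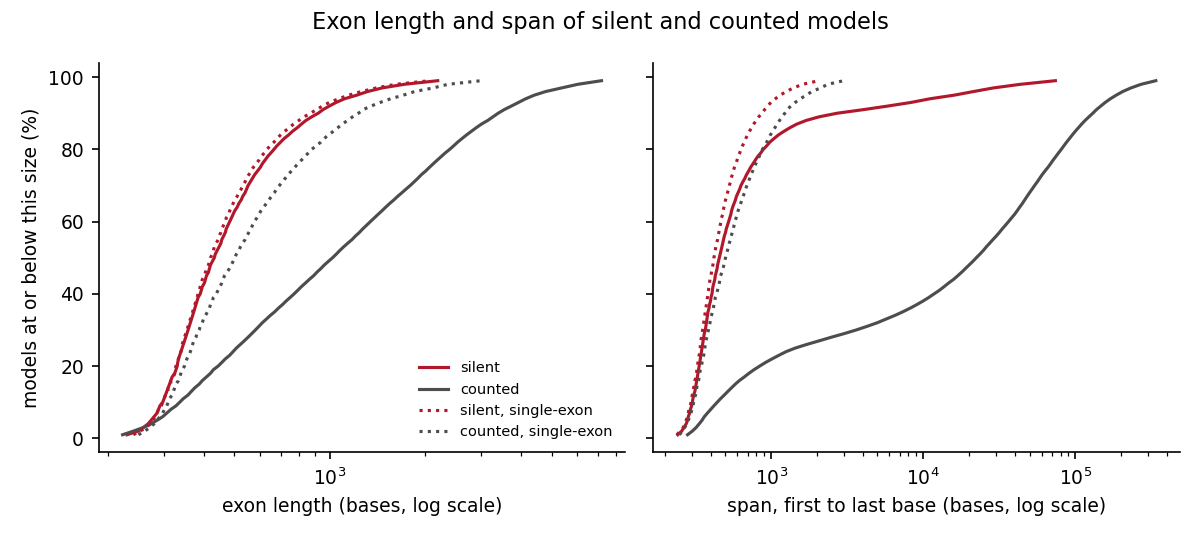
Percent of models at or below a size (vertical axis, 1st to 99th percentile) by exon length (left) and by span (right), both in bases on a log axis. Red lines are silent and grey lines counted models, and dotted lines are the single-exon models of each; the dotted lines, with medians of 420 and 501 bases, lie nearer each other than the full lines, with medians of 432 and 1019 bases of exon and 456 and 22336 bases of span.

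The silent models with most exons overlapped counted models. Of the 44 with 6 or more exons, 29 shared at least 50% of their exon bases with another model on the same strand, and in all 29 that other model was longer and had counts. The totals of these partners ran from 839 to 50673 counts with a median of 5226. A median of 95.4% of the silent model's bases was shared, which left a median of 122 bases of its own. Among counted models with 6 or more exons, 0.908% shared as much on the same strand. All 17 silent models with 11 or more exons belonged to this set.

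EA12851 had the most exons of any silent model, 28, on the minus strand of scaffold ScMYAQb_9773 (chromosome 10) from 71657134 to 71752645, in 1-based coordinates of the assembly Pata_MYAQb as for all positions here. It had 0 counts in each of the 13 libraries, and 5225 of its 5238 exon bases were also exon bases of EA11590, a model of 41 exons. EA11590 had 286 counts in its lowest organ, a median of 2533 and 9604 counts in adipose tissue, its highest. Of EA12851's own, 13 exon bases lay outside EA11590, and a read that touches exons of both models is counted for neither.

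EA16071 on chromosome 11 (ScMYAQb_1373, 114319951 to 114598303) was second both in exons, with 25, and in exon length, with 7236 bases, of which 7121 were shared with EA14254. EA14254 had a median of 20 counts and a highest value of 731 counts in adipose tissue. EA32773 on chromosome 7 had 23 exons and shared 3473 of 3542 bases with EA34654, whose counts ran from 77 to 1422, highest in heart. EA71014 and EA29500, with 22 exons each, had 45 and 19 bases of their own beside partners with totals of 5764 and 6263 counts.

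The longest spans among silent models were of the same kind. EA30898 on chromosome 7 (ScMYAQb_9761, 84197484 to 84532561) spanned 335078 bases with 7 exons, and 874 of its 1038 exon bases lay in exons of EA31384. EA22828 on chromosome 1 (ScMYAQb_1156, 14225507 to 14535001) spanned 309495 bases and shared 2064 of 2277 bases with EA22168. The source table names EA22828 ATP2B3-2 and EA22168 ATP2B1-1, both after calcium pumps of the plasma membrane, and the counts of the second ran from 26 to 518 with the highest value in slime gland.

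The remaining 15 silent models with 6 or more exons shared no exon base with another model. The one with most exons was EA26112, with 10 exons and 2007 bases, from 98326347 to 98329769 on chromosome 5 (ScMYAQb_9854). EA27817, with 8 exons and 1482 bases, ended at 98326173, just before it, and EA30353, with 8 exons and 1872 bases, began at 98369865. These 3 models, of compact span (3423, 2488 and 3027 bases), stood within 1 short stretch of the chromosome.

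Over all silent models overlap was uncommon, and 8650 of the 8841 shared no exon base with any other model. At least 1 base was shared by 2.16% of silent and 5.46% of counted models, but at least 50% of the bases by 1.52% and 0.759%, so the order depended on how much overlap was asked for. For 36 silent models every exon base was shared. No counted model can be in this position, because reads that touch exons of more than 1 model were not counted. Of the 134 silent models with 50% or more of their bases shared, 116 had a counted partner and 18 a silent one. The same exon lengths in the same order as in another model were found in 32 of 1242 silent models with 2 or more exons (2.58%) and in 76 of 20224 counted ones (0.376%). Most of these had 2 exons, and there the shares were 4.06% of silent and 3.83% of counted models. With 3 or more exons they were 3 of 528 silent models and 1 of 18268 counted ones.

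The longest silent models showed no such overlap, apart from EA16071. EA33173 on chromosome 7 (ScMYAQb_9761, 67571576 to 67579123) was a single exon of 7548 bases with 0 counts in every library. EA58219 on chromosome 4 had 6834 bases in 3 exons, EA65082 on chromosome 8 had 6498 bases in 1 exon and EA29340 on chromosome 5 had 5511 bases in 1 exon. All were at 0 in the 13 libraries and shared no exon base. Of 83 silent single-exon models above 2000 bases, 82 shared none. Over single-exon models of all lengths, 1.12% of silent and 1.45% of counted ones shared any base.

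Silent models lay in the span of another model, inside an intron or across exons, in 14.1% of cases against 6.23% of counted models. Among single-exon models alone the order was turned, with 13.8% of silent and 17.7% of counted models nested in this way.

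Silent models were found on every scaffold, at similar shares. The share ran from 20.8% on ScMYAQb_9900 (chromosome 13) over a median of 25% to 28.8% on ScMYAQb_1353 (chromosome 2), and to 32.6% on ScMYAQb_9848, a part of chromosome 12 with only 190 models. On the 1175 smaller scaffolds, outside the rule, 1816 of 2230 models had no count, which is 81.4%, with a median exon length of 411 bases. Within 1000 kb of the end of a large scaffold 29.8% of models were silent, and 20000 kb or more away 24.6%.

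Along the scaffolds silent models clustered. After a silent model the next model in order was silent in 42.5% of cases, and after a counted model in 19.2%. This order held on 19 of 19 scaffolds, with 37.5% to 48.3% after silent and 16.3% to 29.9% after counted models. The shares lay nearest each other on ScMYAQb_9848, at 38.7% and 29.9%.

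The difference faded with distance along the scaffold (the plot of silent neighbours). It was 35.2% against 21.6% at 2 places, 29.2% against 23.6% at 5 places, 27.8% against 24.1% at 10 places and 26.1% against 24.6% at 20 places. At 100 places it was 25.5% against 24.7%, near the 25.0% of all models.

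**Figure D4:**
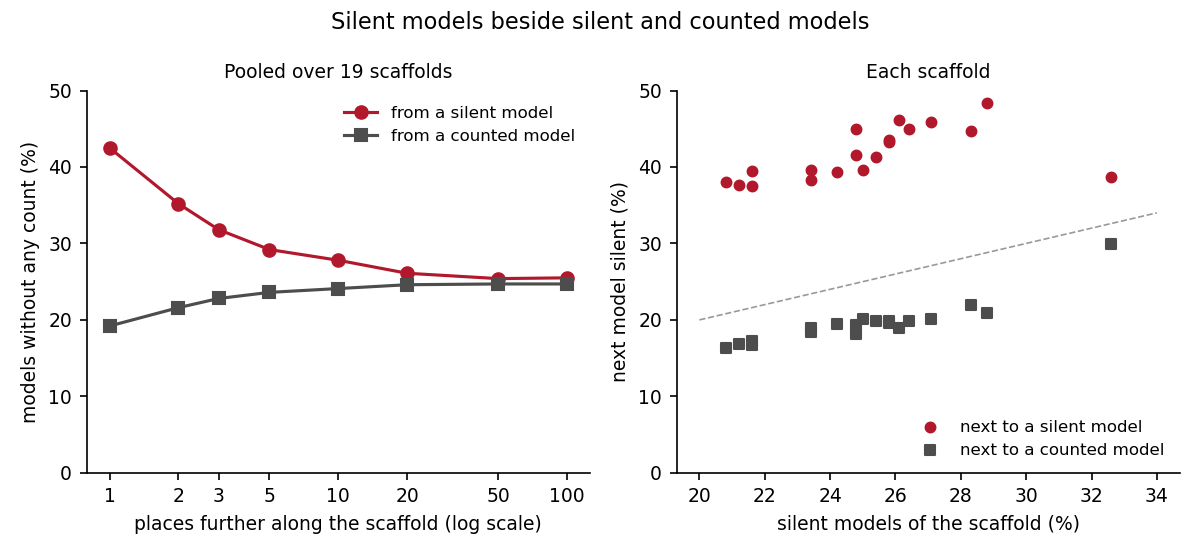
Left, percent of models without any count (vertical axis) at a given number of places further along the scaffold (horizontal axis, log scale), from silent (red) and counted (grey) models, over 19 scaffolds: 42.5% and 19.2% at 1 place, 25.5% and 24.7% at 100 places. Right, the percent of next models that were silent (vertical axis) by the silent share of the scaffold (horizontal axis), 1 red and 1 grey point per scaffold; all red points lie above and all grey points below the dashed line of equal values.

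The order was the same within classes of the first model's structure, while the structure of the next model was not matched. For single-exon models of under 500 bases the next model was silent in 42.7% of cases after silent and 22.5% after counted ones. For models with 2 or more exons the values were 37.2% and 17.9%. When the neighbour of a silent model was counted, its median total was 397 counts, against 1312 for the counted neighbours of counted models. Where the first model had a single exon this order was turned, with 405 against 347 counts.

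The 8841 silent models formed 5085 runs of adjacent members. Of these runs 3242 were single models, 1020 were pairs and 823 held 3 or more models. Of the silent models 63.3% thus had a silent neighbour and 40.3% stood in a run of 3 or more. The 63.3% counts a neighbour on either side, unlike the shares for the next model above, and no like share of counted models was taken. Runs of 10 or more numbered 26 and held 400 models, or 4.52% of the members.

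Pooled over neighbours, gaps were shorter in longer runs. The median gap between neighbours was 7983 bases in pairs, 5805 in runs of 3 or 4, 1823 in runs of 5 to 9 and 603.5 in runs of 10 or more, where 60.4% of the gaps were below 1 kb. Single runs differed: in the 10 longest, the median gap ran from 221.5 bases to 15789, the latter in 16 models on chromosome 7. Over all neighbours the median gap was 10883 bases and 22.7% were below 1 kb. Between neighbours that both had a single exon the gaps were more alike, with a median of 3095 bases and 39.1% below 1 kb when both were silent, and 4943.5 bases and 35.6% when both were counted. Single-exon models made up 93% of the members of runs of 10 or more and 84.5% of the silent models that stood alone.

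Silent neighbours were more often on 1 strand. Both lay on the same strand in 63.4% of silent pairs, in 53.6% of counted pairs and in 52.1% of mixed pairs, and in 70.3% of pairs within runs of 10 or more. Among pairs of single-exon models the shares were alike, 65.2% when both were silent and 64.2% when both were counted.

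The longest run held 38 models on chromosome 6 (ScMYAQb_802, 144072941 to 144193560) and was almost all on 1 strand. It began with EA04577, a single exon of 786 bases, and 37 of the 38 models lay on the minus strand. Only the last, EA01388 with 636 bases, lay on the plus strand, after the largest gap of the run, 68638 bases. The median gap was 434 bases and 31 of 37 gaps were below 1 kb. The models had a median exon length of 504 bases, and the longest, EA03282, had 1860 bases in 2 exons.

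The stretches beside this run were empty of models, and neither a counted nor a further silent model lay within 100 kb on either side. The model before the run, EA03402, had 9 counts in all organs together and the model after it, EA01834, had 780. Of the 41 models that started in the 1 Mb window that holds it, 38 were silent, the highest share (92.7%) among the 1906 windows with at least 10 models. The median window had 21.4% silent models, 160 windows had at least 50%, and 114 had none.

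The next longest run, 27 models on chromosome 12 (ScMYAQb_231, 106339230 to 106620193), was spread more widely and used both strands. It held 16 models on the plus and 11 on the minus strand with 5 changes of strand between neighbours, and its largest gap was 155249 bases. It began with EA71104, of 231 bases, and ended with EA70343, of 900 bases, and the longest member was EA68859 with 1512 bases. The only counted model within 100 kb, EA69511, had 3 exons of 285 bases in all and 65 counts.

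The third run, 25 single-exon models on chromosome 17 (ScMYAQb_9867, 52307016 to 52441526), lay among other models with few counts. It ran from EA81319, of 300 bases, to EA82527, of 804 bases, with EA80016, of 2148 bases, as the longest member. Within 100 kb there were 15 further silent models and 16 counted models, and 12 of the 16 had a total of 11 counts or fewer. The longest counted model there, EA80243, had 16 exons, 1962 bases and 2873 counts.

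**Figure D5:**
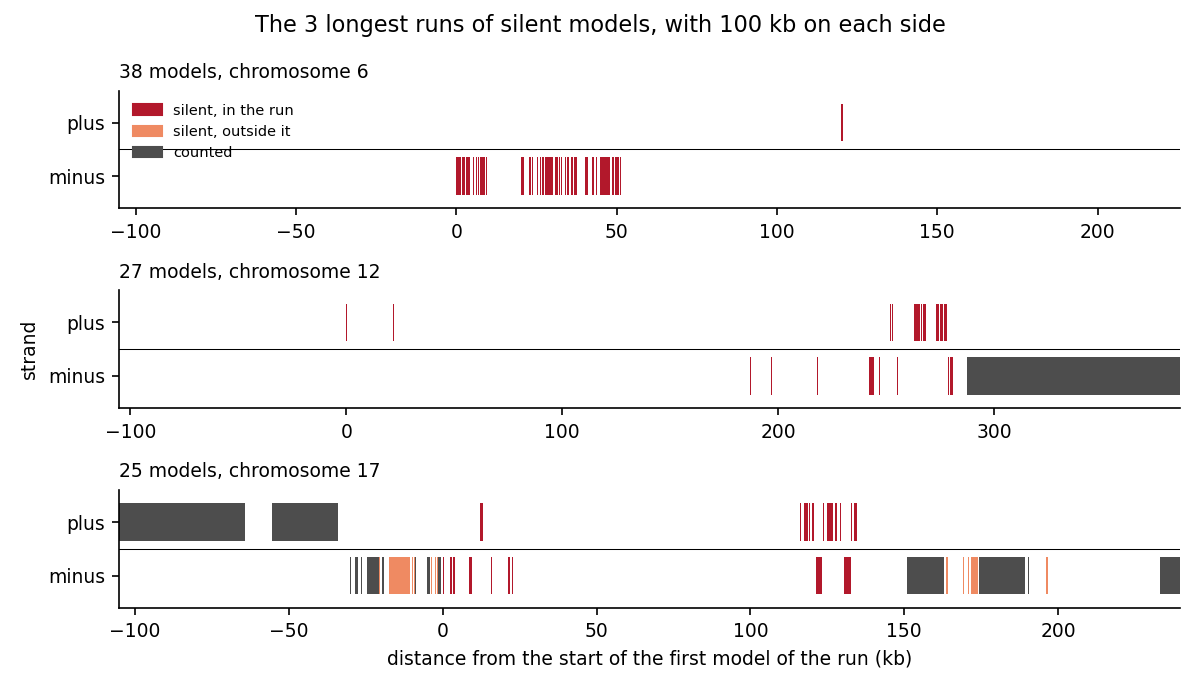
Positions of gene models in the 3 longest runs and within 100 kb of them, by distance in kb from the start of the first model of the run (horizontal axis), with the strand on the vertical axis; each block runs from the first to the last base of a model. Red blocks are the 38, 27 and 25 silent models of the runs, orange blocks silent models outside the run and grey blocks counted models; the first run has 37 of its 38 models on the minus strand and no other model within 100 kb.

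No exon base was shared with another model in any of these 3 runs. Nearly all their members had a single exon, and sharing was rare in such models everywhere. Any base was shared by 1.12% of silent and 1.45% of counted single-exon models. Whether the members of a run are copies of each other was not tested, because no genome sequence was used here. Runs of 20 to 22 models followed on chromosomes 1, 2 and 10. In the run of 21 on chromosome 2 (ScMYAQb_1353, 200703720 to 200741295) exons filled 46.5% of the stretch, against 19.1% in the longest run.

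Names, domains and evolutionary origin were known for a part of chromosome 1 only, from the part of the authors' source table used here, up to position 182525514 of the chromosome. In this stretch lay 693 silent and 1881 counted models, and the silent share was 26.9%. The table listed 29.4% of the silent and 93.7% of the counted models, and of the 608 models it did not list 80.4% were silent. A protein domain was given for 37 silent models and 1008 counted ones.

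Among the 1966 listed models 10.4% were silent, and the share differed with origin as the authors assigned it. It was 24.2% of 223 models assigned to the class the table calls Myxines, a name of the hagfishes, and 12.8% of 374 in the class it calls Eptata. It was 7.88% of 1219 models assigned to deuterostomes, and 3, 2 and 1 silent models made up 7.69% of the chordate, 2.6% of the vertebrate and 2.94% of the cyclostome models. Cyclostomes are hagfishes and lampreys, the jawless vertebrates. These shares were not adjusted for exon number.

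Domains of mobile elements were the ones most often found in silent models. Of 66 listed models with such a domain, from a list of reverse transcriptase, integrase, transposase and related domains, 16 were silent, or 24.2%, beside 3.54% of all 1045 listed models with any domain. Exon number moved with this: among single-exon models 11 of 37 with a domain of mobile elements were silent and 9 of 36 with other domains, and among models with more exons 5 of 29 (17.2%) and 12 of 943 (1.27%). The reverse transcriptase domain RVT_1 was listed for 5 silent models of 21 models that carry it, RT_RNaseH_2 for 4 of 5, PIF1, a helicase domain, for 4 of 9 and the transposase domain DDE_1 for 3 of 5. Of 36 models with domains of developmental regulators 2 were silent (5.56%). None was silent among 31 protein kinase, 25 TRIM-type, 16 cytoskeleton and 11 intermediate filament models. The same held for 24 models with the C2H2 zinc finger domain zf-C2H2. All of these classes are too small to be set apart from the 3.54% of all models with a domain. The related domains zf-C2H2_jaz and zf-C2H2_12, outside that class, were each listed for 1 silent model, of 2 and 1 models that carry them.

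A gene symbol was given to 20 silent and 1007 counted models of the stretch. The symbols come from similarity to genes of other vertebrates, and the roles below are known from those. Of single-exon models with a symbol 16.2% were silent, and of those with more exons 1.41%.

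Of the 20 symbols, 3 were of the TIGD group, whose share among all models with a symbol was not taken. TIGD6-9 (EA22824), TIGD4-3 (EA24097) and TIGD1-12 (EA24253) are named after genes derived from Tigger DNA transposons, and had 1 exon of 438, 465 and 402 bases. Of the name TIGD1, 3 other models in the stretch were all counted, with up to 7937 counts for TIGD1-17. ZBED8-11 (EA39227, 813 bases) and ZMYM6-5 (EA39467, 486 bases) bear names of zinc finger genes. The highest totals of counted models with those names were 79 and 46.

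There were 2 models named after regulators of development. HOXC9-1 (EA35886), named after a homeobox gene that patterns the body axis, had 312 bases in 2 exons from 96490030 to 96490574 of ScMYAQb_1770. The other model of that name, HOXC9-2, was counted. WNT5B-3 (EA38962), named after a secreted Wnt signal, had 1083 bases in 6 exons from 116256308 to 116262659 and shared no exon base, and WNT5B-2 was counted. Both silent models were at 0 in all 13 organs, and the counted models of the same name had 81 and 238 counts over all organs together.

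NTN1-2 (EA36614), named after the axon guidance signal netrin, stood in a run of 5 silent models from 65986417 to 66051523 of ScMYAQb_1770, with AC008695.1 (EA39296), which has a RasGEF domain, and RAPGEF2-1 (EA35939), named after an exchange factor for Rap GTPases. The models on either side of the run had totals of 2 and 12 counts.

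Overlap with a counted model was found for 5 of the 20 named models. DHX29-1 (EA36552), named after an RNA helicase of translation initiation, shared 2619 of 2682 bases with DHX29-2, which had from 84 to 456 counts in the 13 organs. PRKCE-1 (EA36204), named after a protein kinase C, shared 1212 of 2057 bases with PRKCE-2, which had from 390 to 2889 counts. GPHN-1 (EA35936), named after the synaptic scaffold gephyrin, shared all of its 411 bases with GPHN-2, which had 4980 counts in adipose tissue and a median of 85. ZNF385D-3 (EA37218) shared all of its 489 bases with ZNF385B-2, which had 1643 counts in all, and ATP2B3-2 is described above. For DHX29, PRKCE and GPHN the silent and the counted model bear the same name, and whether they stand for 1 gene was not tested.

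The other silent models with a symbol shared no exon base. They were HEXIM2 (EA23598, 1008 bases), named after an inhibitor of transcription elongation, ANKRD33B (EA38972, 627 bases in 4 exons), HIP1-8 (EA39737, 744 bases), named after a clathrin adaptor, and NAV2-3 (EA23348, 441 bases), named after a neuron navigator protein. HIP1-6 had 645 counts and NAV2-2 had 6047.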

How the data were processed

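The authors aligned reads of 13 organs with STAR 2.5.2b and counted them per gene model with featureCounts 1.6.1, per the file headers at exon level, unstranded, without multi-mapping reads, without reads shared by models and with each mate counted by itself. The deposited table holds these raw counts, with each model's exons, strand and exon length. The values carry no normalization. The models were built by the authors partly from reads of these organs, and models rich in repeats were discarded by them. The annotation table is the authors', of which a part was used: 1966 of 1998 rows whose ID and position matched the count table. Coordinates are 1-based on the scaffolds of assembly Pata_MYAQb, and the chromosome of each scaffold was taken from 2312 gene IDs in the authors' tables.

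Overlapping listed exons were merged into exon numbers. Models were ordered by start on each scaffold, and a run is a set of adjacent silent models. Exon bases shared with another model were counted on either strand. With 1 library per organ, no test between organs was possible, and none was made between silent and counted models. Members, lists and named models were chosen with earlier results of these data known. The text names the models with most exons (5), longest exons (5) and longest span (3), those with a symbol (up to 20, of which 1 is not reported here), the 5 longest with a total of 1 or 2, and the first, last and longest member of the 3 longest runs. The 15 models with 6 or more exons and no shared base were listed after their values were seen. The code that orders models and counts runs and shared bases was checked on made-up models with known answers, which is no test of the results. Alternatives were limits on the total, the scaffolds, the order and the overlap, and leaving out each organ or scaffold. Python 3.11.15, numpy 2.4.6, pandas 2.3.3, scipy 1.17.1 and matplotlib 3.10.9 were used.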

Additional observations from a re-analysis of the deposited data

How the results depend on the processing

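Alternatives moved values but turned few orders. The silent share, 25.0%, was 30.4% at a total of at most 2 counts, 38.4% at most 10, 28.4% on all scaffolds, 27.6% without adipose tissue and brain and 25.7% without models that share exon bases, and 25.2% to 26.1% when each library was left out. Single-exon silent models made up 84.2%, 80.6% and 86.9% at totals of at most 2 and 10 and without shared bases. Their median exon length was 438 and 447 bases at those totals, 420 in single-exon and 534 in multi-exon models, and their median span was 468 and 489 bases at those totals, 8312.5 in multi-exon models, and 420, 3452 and 17961.5 bases at 1, 2 and 3 to 5 exons. At 6 or more exons the silent span was the larger, 97132.5 bases. After silent models the next was silent in 47.6% and 53.5% of cases at those totals, against 22.9% and 29.0% after counted models. It was 47.1% against 17.7% for neighbours within 50 kb and 37.2% against 17.9% where the first model was multi-exon. Without the runs of 10 or more it was 40.1% against 19.1%, an alternative chosen after seeing the data like that on multiples of 3. After silent models it was 42.0% to 42.7% when each scaffold was left out. Runs of 3 or more rose from 823 to 1582 at a total of at most 10 counts, where the silent share itself was 38.4%. For shared exon bases the order depended on the limit. At least 50% was shared by 1.52% of silent models, above counted models. All bases were shared by 0.407%, where the counting allows no counted model. On the same strand 1.15% of silent models shared any, 0.973% at least 50% and 0.170% all bases. At this depth a silent call allows, at a 95% confidence level, up to 3 fragments, or 6 counts, over all libraries. No paired analysis was possible because each organ had 1 library.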
